A study of Mus musculus with 2 samples.

Results

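The Mir322-Mir503 cluster is a group of microRNA (miRNA) genes on the X chromosome, described here in a calf muscle, the gastrocnemius, of newborn female mice. Its genes were chosen by symbol: Mir322, Mir351, Mir503 and Mir542, together with every counted gene whose symbol starts with Mir450, namely Mir450b, Mir450-1 and Mir450-2. They made up 7 of 2202 counted miRNA genes, and all 7 were detected, meaning at 2 CPM (counts scaled to library size, as defined with the levels) or more in each library. The data comprised 1 group of 2 small RNA libraries from females of the B6CASTF1/J hybrid at postnatal day 4, numbered by the labels as separate biological replicates. The labels name no allele, transgene or treatment, so the values describe 1 condition and the spread between its libraries. The tissue was taken whole, so fewer cells of a type and less RNA per cell cannot be told apart.

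MiRNAs are short RNAs cut from hairpin precursors that lower the output of target mRNAs, chiefly through the seed, bases 2 to 8 of the mature RNA. In cultured muscle cells, miR-322 (named miR-424 in humans) and miR-503 are known to be induced at differentiation and to favour exit from the cell cycle by lowering the phosphatase Cdc25A. Mir322 and Mir503 belong to the miR-15/16 superfamily, whose members repress cyclins and other cell cycle genes, while miR-351 shares its seed with the miR-125 family, the mammalian relatives of the worm miRNA lin-4.

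The mature sequences are shown because they set both the seed relations among the genes and which reads could be assigned to 1 gene. All 7 genes matched RefSeq entries on GRCm38.p6, which hold 13 distinct mature RNAs with 12 distinct seeds. Capitals mark the seed. The 5′ arms of Mir322 and Mir503 stand above those of 2 members of the miR-15/16 family:
miR-322-5p: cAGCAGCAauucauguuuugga
miR-503-5p: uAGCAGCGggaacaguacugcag
miR-15a-5p: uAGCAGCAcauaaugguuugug
miR-16-5p: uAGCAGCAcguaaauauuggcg
The seed of miR-322-5p is that of miR-15a-5p and miR-16-5p, letter for letter. Counted from the 5′ end, miR-503-5p differs from miR-322-5p in this stretch by C1U, outside the seed, and A8G, at its last base, and no other mature RNA of the reference table holds its seed.

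Mir351 is shown beside miR-125b-5p, with which, as with miR-125a-5p, it shares the first 8 bases, and Mir542 by its 3′ arm:
miR-351-5p: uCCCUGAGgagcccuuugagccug
miR-125b-5p: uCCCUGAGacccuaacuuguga
miR-542-3p: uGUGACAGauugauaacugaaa
No mature RNA outside the cluster held the seed of miR-542-3p. The Mir450 genes are shown by both arms, since their likeness to each other bears on their counts:
miR-450a-5p: uUUUGCGAuguguuccuaauau
miR-450b-5p: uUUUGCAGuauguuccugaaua
miR-450a-1-3p: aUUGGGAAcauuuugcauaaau
miR-450b-3p: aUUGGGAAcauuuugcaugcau
miR-450a-2-3p: aUUGGGGAugcuuugcauucau
The 22 bases of miR-450a-5p occur whole in both Mir450-1 and Mir450-2, whereas miR-450b-5p differs from it within the seed by G7A and A8G. The 3′ arms of Mir450-1 and Mir450b share 1 seed.

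Levels are reads on the gene's own strand, scaled to the total of all gene counts as CPM, and each gene's count pools both arms of its hairpin. Reads that matched several places were given to no gene. Genes that share a mature RNA with another gene can thus be undercounted, and all ranks and shares are those of assigned reads. A read stands for a whole small RNA below 30 bases, so counts were not divided by hairpin length. Mir322 (ENSMUSG00000065418.1, mm10 chrX:53054255-53054349, minus strand) had 115732 counts in library 1 and 101193 in library 2, or 20780 and 23334 CPM. Its mean of 22057 ± 1806 CPM (SD, n = 2) ranked 13 of 2202 genes, and the gene alone made up 65.1% ± 3.30 of the counts of the cluster. Mir322 thus stood far above its neighbours in both libraries.

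Mir503 (ENSMUSG00000076122.1, chrX:53053984-53054054, minus strand), the other miR-15/16 relative, had 8166 counts in library 1 and 5536 in library 2, or 1466 and 1277 CPM. It averaged 1371 ± 134 CPM (SD, n = 2) and ranked 74. Although the start of Mir503 lies 295 bases after that of Mir322, the ratio of Mir322 to Mir503 was 14.2 in library 1 (95% interval 13.9 to 14.5) and 18.3 in library 2 (17.8 to 18.8), a mean of 16.2 ± 2.90 (SD, n = 2). These intervals are exact and, like all intervals given here, cover counting error only.

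Mir351 (ENSMUSG00000065503.1, chrX:53053255-53053353, minus strand), a miRNA linked in mouse muscle progenitors to proliferation and the cell cycle factor E2f3, had 41471 counts in library 1 and 28335 in library 2. Its level was 7446 CPM in library 1 and 6534 CPM in library 2, with a mean of 6990 ± 645 CPM (SD, n = 2) at rank 27. It held 20.7% ± 2.56 of the counts of the cluster. Its ratio to Mir503 was 5.08 in library 1 and 5.12 in library 2, a mean of 5.10 ± 0.0282 (SD, n = 2), so the pair kept nearly the same proportion while the ratio of Mir322 to Mir351 was 2.79 in library 1 and 3.57 in library 2.

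Mir542 (ENSMUSG00000076140.1, chrX:53049403-53049487, minus strand), whose 3′ arm is known in human cells to lower the apoptosis inhibitor survivin, had 15902 counts in library 1 and 12203 in library 2. These came to 2855 and 2814 CPM, a mean of 2835 ± 29.3 CPM (SD, n = 2) at rank 57. Mir542 was 2.08 ± 0.182 times as abundant as Mir503 (SD, n = 2), and Mir351 was 2.46 ± 0.202 times as abundant as Mir542.

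The Mir450 genes lay lower. Mir450b (ENSMUSG00000076050.1, chrX:53047997-53048078) had 2478 counts in library 1 and 2212 in library 2, or 477 ± 46.1 CPM (SD, n = 2). Mir450-1 (ENSMUSG00000065486.1, chrX:53048154-53048244) had 442 and 447 counts, or 91.2 ± 16.8 CPM. Mir450-2 (ENSMUSG00000076399.1, chrX:53048299-53048367) had 51 and 42 counts, or 9.42 ± 0.373 CPM. Together the Mir450 genes held 0.0578% ± 0.00632 of all gene counts.

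These low values have to be read with the sequences. Mir450-1 and Mir450-2 share a stretch of 25 bases that holds all of miR-450a-5p, and reads that matched several places were kept in a separate line of each table and given to no gene. Any reads of miR-450a-5p are therefore missing from both genes, and their number is not known. Mir450b shares 19 bases with Mir450-1, of which 18 lie in its 3′ arm, and none of its 5′ arm beyond 10 bases occurs in another counted hairpin. Mir322, Mir351, Mir503 and Mir542 share at most 13 bases with any other of the 2202 counted hairpins. None of the 7 genes had a count on the opposite strand.

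**Figure D1:**
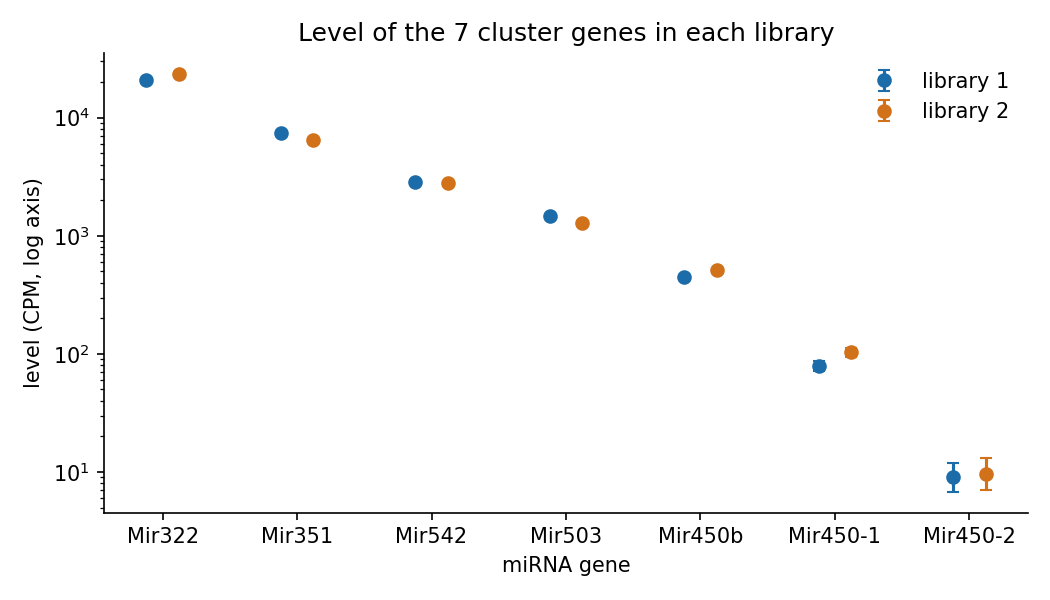
Level of each cluster gene in CPM on a log axis, with the genes in order of mean level; points are the 2 libraries and bars their exact 95% intervals for counting error. Mir322 lies at 20780 and 23334 CPM and Mir450-2 at 9.16 and 9.68 CPM, and the ranges of neighbouring genes do not overlap.

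In order of counted level the genes were Mir322, Mir351, Mir542, Mir503, Mir450b, Mir450-1 and Mir450-2. The places of Mir450-1 and Mir450-2 are those of counts without any reads of miR-450a-5p. Between each gene and the next the values of the libraries did not overlap, and the smallest step was the 2.07-fold one between Mir542 and Mir503. The ratio of Mir322 to Mir450-2 was 2339 ± 99.1 (SD, n = 2), which the missing miR-450a-5p reads can only overstate. Mir450b, with a 5′ arm of its own, was 46.2 ± 0.676 times less abundant than Mir322.

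The order of level was not the order on the chromosome. All 7 hairpins lie on the minus strand within 6353 bases, and none overlaps another gene annotated in GENCODE M21. In the direction of transcription Mir322 comes first, Mir503 follows after a gap of 200 bases, and Mir351 after a further 630 bases. A gap of 3767 bases, which holds the lincRNA gene Gm28730, separates Mir351 from Mir542. The Mir450 genes start 1035 bases after the end of Mir542 and lie 54 and 75 bases apart. Mir503 was less abundant than Mir351 and Mir542, which follow it. Mir450b, the last gene, had more counts than Mir450-1 and Mir450-2. The latter lack any reads of miR-450a-5p, so the order of abundance among the Mir450 genes cannot be told. The upstream genes Mir322, Mir503 and Mir351 held 2.97% of all gene counts in library 1 and 3.11% in library 2. Mir542 and the Mir450 genes together held 0.339% and 0.344%, almost the same share in each library.

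**Figure D2:**
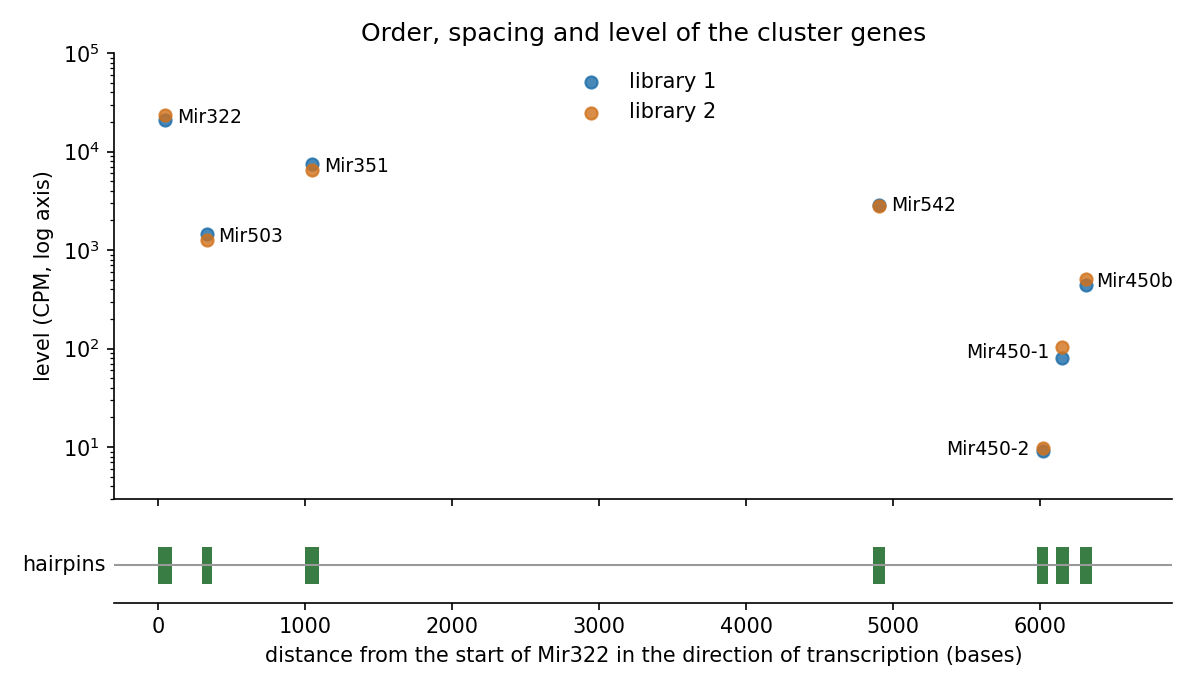
Level of each gene in CPM on a log axis (upper part, points are the 2 libraries) against its distance in bases from the start of Mir322 in the direction of transcription; boxes in the lower part are the hairpins, to scale. Mir503 dips between Mir322 and Mir351, and levels climb again along the Mir450 genes, of which Mir450-2 and Mir450-1 lack the reads they share.

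The base composition differed along the cluster as well. The hairpins of Mir322, Mir503, Mir351 and Mir542 had GC contents of 51.6%, 54.9%, 50.5% and 51.8%. Those of Mir450-2, Mir450-1 and Mir450b had 36.2%, 33.0% and 30.5%. The 4 GC-richer hairpins were also the 4 genes with the most counts, which is a description of 7 genes and was not tested.

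Set beside the genes with the same seed, Mir322 held most of the counted reads. Of 11 counted genes with a mature RNA carrying the seed of miR-322-5p, 7 were detected, and Mir322 made up 87.8% of their counts in library 1 and 92.0% in library 2, a mean of 89.9% ± 2.97 (SD, n = 2). The next in level was Mir195a at 862 CPM in library 1 and 516 CPM in library 2. Mir15a followed at 708 and 494 CPM, then Mir15b at 616 and 503 CPM. Mir497 was at 268 and 244 CPM, Mir16-1 at 308 and 195 CPM and Mir16-2 at 124 and 77.7 CPM. Mir16-1 and Mir16-2 both hold the whole of miR-16-5p, so reads of that RNA were not given to either, and the share of Mir322 can be overstated. By counted reads, Mir503 at 1371 ± 134 CPM was also above every miR-15/16 gene with the seed of miR-322-5p other than Mir322. Its range did not overlap theirs, but with the miR-16-5p reads missing its order against Mir16-1 and Mir16-2 cannot be told. Of the other listed family genes, Mir195b had no count, which allows a level of 0.539 CPM at most in library 1 and of 0.692 in library 2, and Mir497b, which carries another seed, had 1 count in all.

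The same held for Mir351, although less steeply. Of 6 counted genes with the seed of miR-351-5p, 4 were detected, and Mir351 made up 70.3% of their counts in library 1 and 71.4% in library 2. Mir125a reached 2543 CPM in library 1 and 2020 CPM in library 2, so Mir351 was clearly the higher gene. Mir125b-1 was at 447 ± 9.33 CPM and Mir125b-2 at 155 ± 8.07 CPM (SD, n = 2). Both hold the whole of miR-125b-5p, a miRNA known to slow myoblast differentiation, any reads of which are missing from these counts, so the share of Mir351 can be overstated too. The ratio of Mir351 to its counted seed relatives was 2.37 in library 1 and 2.49 in library 2.

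**Figure D3:**
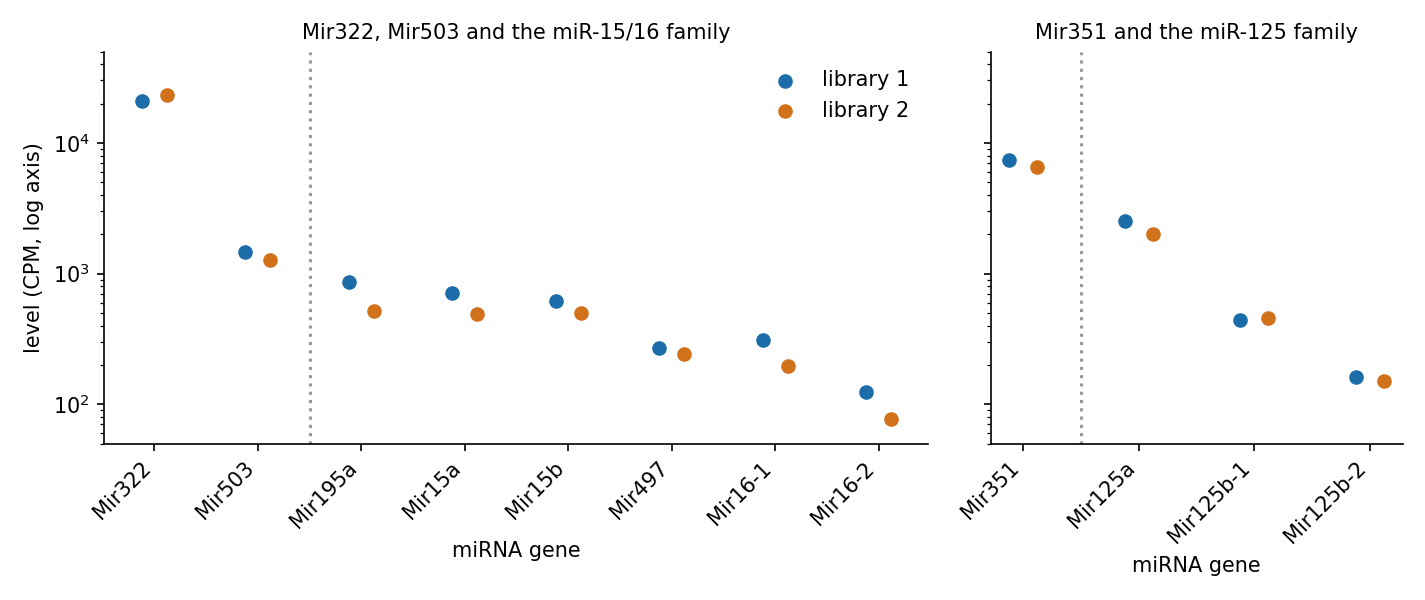
Level in CPM on a log axis of Mir322 and Mir503 beside the 6 detected miR-15/16 genes (left), and of Mir351 beside the 3 miR-125 genes (right); points are the 2 libraries. Mir322 lies at 20780 and 23334 CPM, while no miR-15/16 gene exceeds 862 CPM, and Mir16-1, Mir16-2, Mir125b-1 and Mir125b-2 lack the reads of the mature RNA they share.

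Between the libraries the cluster as a whole moved little, while its genes went both ways. Its share of all gene counts was 3.31% in library 1 and 3.46% in library 2. Counts were compared with an exact two-sided binomial test against TMM-scaled totals, with Benjamini-Hochberg adjustment over all 335 detected genes at a threshold of 0.05. That test compares these libraries and no conditions. By it 6 of the 7 genes differed beyond counting error, where 54.9% of the detected genes did. Of these, 3 were higher in library 2, against 28.1% of the detected genes, and 3 were higher in library 1, against 26.9%. The median absolute log2 ratio was 0.17 over the 7 genes and 0.20 over all detected genes. All 7 lay below a 1.5-fold ratio, as did 85.1% of the detected genes. Calls depend on depth: of the genes at 10 CPM or more in both libraries 65.4% were called, and so were all 6 cluster genes among them.

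Mir322 was higher in library 2, with a log2 ratio of library 2 over library 1 of 0.14 (95% counting interval 0.13 to 0.16; exact binomial adjusted p = 5.1e-119). Mir450b at 0.17 (0.09 to 0.26) and Mir450-1 at 0.35 (0.16 to 0.55) were higher too. Mir351 at -0.21 (-0.23 to -0.19) and Mir503 at -0.22 (-0.27 to -0.17) were lower in library 2 by nearly the same amount. Mir542 was lower by only -0.04 (-0.08 to -0.01), with an exact binomial adjusted p of 0.0248 that was 0.331 against plain library totals. Mir450-2, with few counts, was not called at 0.06 (-0.57 to 0.68). In the 6 called genes the higher library exceeded the lower one by between 1.03 and 1.28 times.

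As counted, the seed relatives did not move with Mir322. All 6 detected miR-15/16 genes were lower in library 2, from Mir497 at -0.16 (-0.27 to -0.04) to Mir195a at -0.76 (-0.84 to -0.69), and their summed log2 ratio was -0.53 (-0.57 to -0.49). The ratio of Mir322 to its counted seed relatives was accordingly 7.20 in library 1 and 11.5 in library 2. Any reads of miR-16-5p are missing from these counts, so how that RNA moved is not known, and the sum and the ratio leave it out. Of the miR-125 genes, Mir125a was lower in library 2 at -0.35 (-0.39 to -0.32), and Mir125b-1 and Mir125b-2 were not called. The counts of Mir125b-1 and Mir125b-2 likewise lack any reads of miR-125b-5p. Markers of other cell types moved between the libraries as well. The 2 endothelial genes together had 29519 CPM in library 1 and 21932 in library 2, the 5 leukocyte genes 1013 and 652 CPM, the 5 connective tissue and cartilage genes 5418 and 4243 CPM, and the 6 liver and gut genes 214 and 867 CPM. The last difference was that of Mir122, since Mir192 was lower in library 2 and Mir194-2 and Mir375 were not called. The 3 smooth muscle genes had 25509 and 29100 CPM, the 11 neural genes 916 and 1188 CPM, the 8 epithelial genes 299 and 411 CPM, and the 3 erythroid genes 96.8 and 120 CPM. The endothelial sum was nearly all from Mir126a, since Mir126b had 3 and 2 counts, and the smooth muscle sum nearly all from Mir143. Of these lists, the endothelial, leukocyte and connective tissue sums were thus lower in library 2, and the others higher. The 9 skeletal muscle genes together had 130998 CPM in library 1 and 120702 in library 2, nearly all from Mir206, so that sum was lower in library 2 as well. Genes did not always follow the sum of their list. Mir145a was lower in library 2 at -0.12 (-0.20 to -0.04), against the smooth muscle sum. Mir486 was higher in library 2 at 0.22 (0.03 to 0.42), against the skeletal muscle sum. Mir155, Mir199a-2, Mir199b, Mir144, Mir338, Mir183, Mir133b, Mir1a-2, Mir133a-1 and Mir1a-1 were detected but not called. The part of the marker genes in the differences of the cluster genes was not tested.

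**Figure D4:**
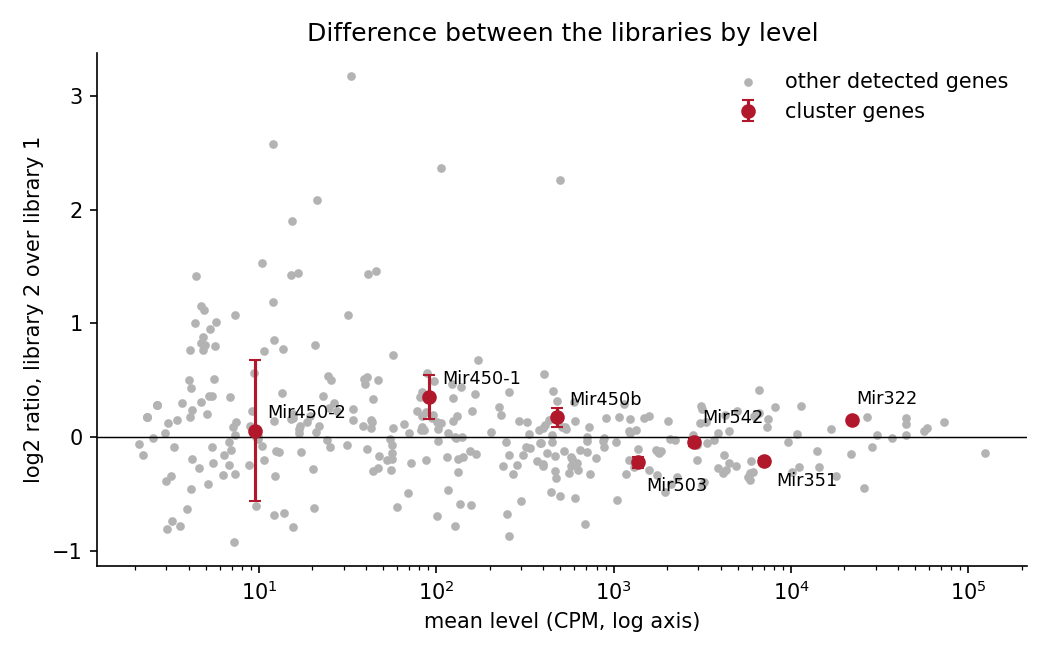
Log2 ratio of library 2 over library 1 against mean level in CPM (log axis) for the 335 detected genes; red points are the 7 cluster genes with exact 95% counting intervals, grey points the others. The cluster genes lie between -0.22 and 0.35, inside the band of the other genes.

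Among all counted genes, neighbours on 1 strand with gaps of up to 10 kb formed 124 groups of 2 genes or more, and the 7 cluster genes formed 1 such group with no further counted gene in it. It ranked 4 by share at 3.38% ± 0.106 (SD, n = 2), after the groups led by Mir411 at 22.4% ± 0.680 and by Mir206 at 12.4% ± 0.708 and the one led by Mir127 at 11.1% ± 0.341. All 7 of its genes were detected, as were both genes of the Mir206 group, 37 of 39 in the Mir411 group and 12 of 14 in the Mir127 group. On the X chromosome the cluster held 62.2% of the miRNA gene counts in library 1 and 62.8% in library 2. Of the 135 other counted X-linked genes 30 were detected, and the highest were Mir652 at 4978 ± 611 CPM, Mir532 at 3851 ± 111 CPM and Mir98 at 2944 ± 72.7 CPM. By counted reads, Mir322 and Mir351 thus stood above every other X-linked miRNA gene. Genes that share a mature RNA with another gene, X-linked or not, can be undercounted. This order, the share of the cluster and its rank among the groups can therefore be overstated. How many reads such genes lack is not known.

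Nearness in level was measured as the distance of log2(CPM + 0.5) over the 2 libraries. The genes nearest to Mir322 were Mir23b at 21632 ± 1348 CPM, Mir143 at 26778 ± 2565 CPM and Mir126a at 25725 ± 5365 CPM (SD, n = 2), at distances of 0.21, 0.39 and 0.51. Mir351 lay nearest to Mir434, Mir542 to Mir665, Mir503 to Mir10a and Mir450b to Mir296. Mir450-1 lay nearest to Mir486, and Mir450-2 to Mir653. With 2 libraries this ranks likeness of level only.

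The labelled tissue was checked on its defining markers. The muscle gene Mir206 had the highest level of all counted genes at 129336 CPM in library 1 and 119323 CPM in library 2, and 8 of 9 skeletal muscle genes were detected. The 9 together held 13.1% and 12.1% of the gene counts, nearly all from Mir206. Mir499 averaged 1169 CPM, Mir208b 156 CPM, Mir486 87.3 CPM and Mir133b 82.9 CPM. Mir1a-2 averaged 17.0 CPM, Mir133a-1 5.24 CPM and Mir1a-1 2.20 CPM, and Mir133a-2 at 0.410 CPM was below the detection limit of 2 CPM. These 4 genes are known to give the same mature RNA in pairs, as Mir450-1 and Mir450-2 do. Any reads of those RNAs were given to no gene, so the 4 levels can be understated. The other marker genes were not searched for shared mature RNAs, so their levels, that of Mir486 among them, can be understated too. The part of Mir206 in the sum, and its top place, are those of assigned reads. The highest markers of the other lists were Mir126a for endothelium at 25725 CPM, Mir143 for smooth muscle at 26778 CPM, Mir214 for connective tissue at 3127 CPM, Mir128-1 for neural tissue at 600 CPM, Mir146 for leukocytes at 301 CPM, Mir203 for epithelium at 224 CPM and Mir451a for erythroid cells at 83.1 CPM, as means. Mir122, the highest of the liver and gut genes, had 169 CPM in library 1 and 824 CPM in library 2, so its mean describes neither. Of the neural genes, Mir124a-2, Mir124a-3 and Mir9-2 had no count in either library, and neither had Mir145b and Mir194-1. Any reads of an RNA shared with another gene were given to no gene, so a count of 0 does not tell that the RNA was absent. Gene counts totalled 5569392 in library 1 and 4336759 in library 2.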

How the data were processed

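The authors deposited whole-number raw counts per gene for 2 libraries. The assembly was mm10, per the labels, and the annotation GENCODE M21, per the notes deposited beside the tables. Not given in the sources used here are the aligner and the counter. Each table has 3 count columns (strand ignored, own strand, opposite strand, as judged from their sums) and 4 lines that name no gene, which stayed out of library sizes. Per library these lines held 36.9% and 37.6% multimapping, 8.03% and 9.26% unmapped, and 1.70% and 2.09% reads in no feature; the ambiguous line was at 0 in the own-strand column.

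All 2202 identifiers matched GENCODE M21, which gave symbols, positions and hairpin sequences. Mature sequences came from RefSeq (GRCm38.p6). CPM were computed from own-strand gene counts. Detection was 2 CPM or more in both libraries, and the pseudocount was 0.5 CPM. TMM factors came from edgeR 4.0.16 on detected genes, under R 4.3.3. Alternatives were plain library totals and the size factors of DESeq2 1.42.0. Intervals are exact at 95% (Poisson, Clopper-Pearson), and a count of 0 allows 3 counts. The reads carry no molecular identifiers that would make them independent molecules, and adapter ligation is known to differ between small RNAs, which CPM do not correct. Other steps used scipy 1.17.1, matplotlib 3.10.9, pandas 2.3.3 and numpy 2.4.6 under Python 3.11.15. The counting test was first tested on data simulated with counting error only, so that check does not cover the spread between replicates or the TMM scaling.

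The members, gene lists and tests were chosen with earlier results of these data known. Named were all members, all listed miR-15/16 and miR-125 genes, the 3 non-member genes nearest to Mir322 and the 1 nearest to each other member, the 3 highest other X-linked genes, the 3 highest groups of neighbours and the highest gene of each marker list. Some genes were named after their values or positions were seen. These were marker genes at 0, those that did not follow their list, the other skeletal muscle, liver and gut genes and Gm28730. No source says more of the libraries than separate biological replicates, so the spread between them may also hold technical differences.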

Additional observations from a re-analysis of the deposited data

Results flagged for a closer look

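Reads that matched several places stand in a line outside the counts used, which is why they are given here. They made up 36.9% of the reads of library 1 and 37.6% of those of library 2. Any reads of miR-450a-5p would be among them, since that RNA occurs in both Mir450-1 and Mir450-2, and how many there were was not measured.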

How the results depend on the processing

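The share of the cluster was 3.85% with strand ignored and 1.77% with all reads as library size, against 3.38%, because only the total changes: the counts of its genes were the same in both columns. With either library alone it ranged from 3.31% to 3.46%, and the ratio of Mir322 to Mir503 from 14.2 to 18.3. The count of differing genes was 184 of 335 tested, 185 with plain totals and 186 with DESeq2 size factors. It was 162 of 320 with strand ignored, 166 of 254 at 10 CPM and 182 of 740 without a filter, so the share of genes called, 54.9% otherwise, was 65.4% at 10 CPM and 24.6% without a filter. With TMM factors from all counted genes, an alternative chosen after seeing the data, it was 189, and the calls split into 72 higher in library 2 and 117 higher in library 1, against 94 and 90. That setting turned the uncalled log2 ratio of Mir450-2, 0.06 otherwise, to -0.0107. The cluster genes called higher and lower in library 2 stayed at 3 and 3, except that Mir542 lost its call with plain totals and without a filter, where its exact binomial adjusted p was 0.331 and 0.0514. A neighbour distance of 50 kb left the cluster at 7 genes and placed it at rank 5, and a shared stretch of 18 bases added Mir450b to the 2 genes that share 20 or 24. Leaving out a library left no test of the difference between libraries. No paired analysis was possible because the series has 1 group. Depth limits Mir450-2 most, whose interval in library 2 ran from 6.98 to 13.1 CPM.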
